A study of Mus musculus with 16 samples.

Results

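Genes that carry calcium into ventricular myocytes and their neighbours were followed across all libraries of a mouse study of chronic kidney disease (CKD): Cacna1c, Cacnb2 and Cacna2d1 of the L-type calcium channel, Cacna1g and Cacna1h of the T-type channels, and Stim1 and Orai1 of store-operated calcium entry. They were taken by gene symbol (GENCODE release M21) from a table of 33399 genes, and all 7 had enough counts to be tested among 16400 genes. The groups were ventricles of 4 male CKD, 4 male control, 4 female CKD and 4 female control mice, all wild-type C57BL/6. From 8 weeks of age the CKD mice ate chow with 0.25% adenine, in alternation with standard chow, for 6 weeks, and the controls ate standard chow for the same time. Adenine forms crystals in kidney tubules and damages them, so the model is one of toxic tubular injury, and each library holds the mixed cells of whole ventricles.

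An L-type channel of the heart is built from a pore subunit (Cacna1c, Cav1.2), a cytoplasmic beta subunit that brings the pore to the membrane and sets its gating (Cacnb2), and an extracellular alpha2delta subunit that raises its surface density (Cacna2d1). Its current triggers calcium release from the sarcoplasmic reticulum with each beat and holds the plateau of the action potential, while T-type pores (Cacna1g, Cav3.1; Cacna1h, Cav3.2) open at more negative voltages and are best known from pacemaker and conduction tissue and from the fetal or diseased ventricle. Stim1 senses the calcium content of the reticulum, and Orai1 is the plasma membrane pore that it opens when the store empties.

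The libraries held about 10203700 to 13626000 counts. Markers listed for ventricular myocytes summed to between 36100 and 51700 CPM (counts scaled to a common library total by TMM) in CKD libraries. In control libraries they summed to between 31400 and 44800 CPM. The list includes genes shared by all heart muscle, such as Myh6, so its sum shows heart muscle and not ventricle alone. Myl2 of that list averaged 3370 ± 662 CPM in CKD and 3000 ± 339 CPM in controls (SD, n = 8 each). Atrial markers summed to 163 to 756 CPM in CKD and 214 to 918 CPM in control libraries. The first principal component took 39.7% of the variance, and the 4 female libraries whose names end in the numbers 3 to 6 (2 CKD, 2 control) lay at its positive end, at 29.9 to 78.1 against -47.8 to 14.8 for the other 12. The sources used here do not say what that number stands for. Library male_CKD 4 stood apart on the second component, at -80.0, and had the lowest summed fibroblast markers, 253 CPM. Values without these libraries stand beside the results that changed when they were left out.

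All 7 genes are protein coding. In the GRCm38 (mm10) assembly Cacna1c (ENSMUSG00000051331.15) occupies chr6:118587240-119196418 on the minus strand, Cacnb2 (ENSMUSG00000057914.15) chr2:14603088-14987908 on the plus strand, and Cacna2d1 (ENSMUSG00000040118.15) chr5:15934691-16374511 on the plus strand. Cacna1g (ENSMUSG00000020866.17) lies at chr11:94408391-94474198 and Cacna1h (ENSMUSG00000024112.16) at chr17:25374285-25433783, both on the minus strand. Stim1 (ENSMUSG00000030987.5) lies at chr7:102267806-102437319 and Orai1 (ENSMUSG00000049686.14) at chr5:123015074-123030456, both on the plus strand. The transcripts of the group differ in base composition, taken for each gene from its longest annotated transcript. Those of Cacnb2 and Cacna2d1 held 39.0% and 40.7% G+C. That of Cacna1c held 50.3%, Stim1 54.5%, Cacna1g 58.1%, Orai1 58.6% and Cacna1h 60.0%. Exons of genes on the opposite strand covered 7.32% of the exonic bases of Cacnb2, 1.62% of Cacna1h and 0.31% of Orai1, where reads cannot be assigned with certainty because the sources used here name no strand setting.

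Promoter windows from RefSeq (GRCm38.p6), 250 bases before to 50 bases after an annotated start, were available for 5 of the genes. Of the 8 windows of these genes 5 are shown, and those of Cacna1c show starts of very different composition. The base composition set against the levels further below is that of transcripts and not of these windows. Capitals mark the GC box GGGCGG on either strand (read as CCGCCC on the printed strand where reversed; neighbouring matches overlap), and each sequence runs 5′ to 3′ on the strand of its gene.
Cacna1c, chr6:119108446-119108745, minus strand: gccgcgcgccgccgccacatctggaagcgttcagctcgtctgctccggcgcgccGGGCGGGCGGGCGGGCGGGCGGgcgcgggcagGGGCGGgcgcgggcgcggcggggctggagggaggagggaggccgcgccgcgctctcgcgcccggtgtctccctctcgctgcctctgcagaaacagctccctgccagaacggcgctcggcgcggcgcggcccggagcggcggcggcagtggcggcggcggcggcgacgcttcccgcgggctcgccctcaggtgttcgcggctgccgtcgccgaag
Cacna1c, chr6:119196360-119196659, minus strand: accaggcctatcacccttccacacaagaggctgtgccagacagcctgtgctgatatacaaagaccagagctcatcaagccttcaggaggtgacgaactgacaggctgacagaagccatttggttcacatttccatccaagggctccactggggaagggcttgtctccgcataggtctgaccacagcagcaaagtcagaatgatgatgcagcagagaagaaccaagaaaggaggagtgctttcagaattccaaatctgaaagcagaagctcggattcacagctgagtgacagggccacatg
Cacna2d1, chr5:15934441-15934740, plus strand: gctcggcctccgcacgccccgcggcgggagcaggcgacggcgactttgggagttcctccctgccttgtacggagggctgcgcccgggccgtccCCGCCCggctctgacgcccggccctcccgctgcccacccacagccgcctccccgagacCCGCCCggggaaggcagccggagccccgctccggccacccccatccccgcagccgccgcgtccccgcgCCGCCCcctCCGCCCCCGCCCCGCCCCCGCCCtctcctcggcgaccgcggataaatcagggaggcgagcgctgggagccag
Stim1, chr7:102267569-102267868, plus strand: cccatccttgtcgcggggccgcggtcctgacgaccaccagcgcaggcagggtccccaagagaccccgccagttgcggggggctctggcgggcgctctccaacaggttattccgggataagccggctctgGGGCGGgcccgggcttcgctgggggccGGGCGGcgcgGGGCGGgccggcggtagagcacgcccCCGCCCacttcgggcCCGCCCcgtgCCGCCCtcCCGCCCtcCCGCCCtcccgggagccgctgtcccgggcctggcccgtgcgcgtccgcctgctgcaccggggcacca
Orai1, chr5:123014824-123015123, plus strand: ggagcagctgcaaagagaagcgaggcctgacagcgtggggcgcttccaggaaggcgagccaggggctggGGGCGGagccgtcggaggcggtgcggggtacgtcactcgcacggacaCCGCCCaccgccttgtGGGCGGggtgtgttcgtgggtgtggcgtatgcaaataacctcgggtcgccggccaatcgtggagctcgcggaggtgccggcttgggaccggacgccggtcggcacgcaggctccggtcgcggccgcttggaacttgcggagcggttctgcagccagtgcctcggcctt
The first Cacna1c window held 81.3% G+C and 6 GC boxes, and the second, at the upstream end of the gene, 51.3% G+C and 0. The Cacna2d1 window held 80.0% G+C and 7 GC boxes, the Stim1 window 78.7% and 8, and the Orai1 window 70.3% and 3. Of the windows not shown, another of Cacna1c held 51.3% G+C and 0 GC boxes. Those of Cacnb2 held 71.7% with 1 GC box and 44.0% with 0. Of 32851 promoter windows of the same length, 35.7% held at least 1 GC box, and the median G+C content was 52.7%. The match is a description of the letters and was not set against the levels. The counts per gene do not separate the alternative starts of Cacna1c, so its level below is the sum over them.

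Scaled for exon length, the alpha2delta subunit was the most abundant transcript of the group and the T-type pores and Stim1 the least. Cacna2d1 averaged 41.1 ± 6.02 TPM (transcript abundance scaled for exon length and library total) in CKD and 44.2 ± 8.62 TPM in control ventricles (SD, n = 8 each, as for all levels of an arm). The pore Cacna1c averaged 22.9 ± 6.29 TPM in CKD and 25.5 ± 6.59 TPM in controls, and the beta subunit Cacnb2 14.2 ± 2.63 TPM in CKD and 13.5 ± 3.16 TPM in controls. Cacna2d1 exceeded Cacna1c in 16 of 16 libraries, and Cacna1c exceeded Cacnb2 in 13 of 16. Orai1 followed at 6.35 ± 1.57 TPM in CKD and 7.35 ± 2.50 TPM in controls. Cacna1g averaged 2.99 ± 1.15 TPM in CKD and 3.94 ± 2.19 TPM in controls. Stim1 averaged 2.43 ± 1.02 TPM in CKD and 3.31 ± 1.02 TPM in controls, and Cacna1h 2.52 ± 0.729 TPM in CKD and 3.0 ± 1.68 TPM in controls. Orai1 exceeded Cacna1g in 16 of 16 libraries, but Cacna1g exceeded Stim1 in only 12 and Stim1 exceeded Cacna1h in only 9, and the ranges over all libraries overlapped between each pair of neighbours in this order. The length used matters for the scale: with the longest transcript in place of the joined exons, the control mean of Cacnb2 was 30.5 TPM and that of Cacna1c 35.3 TPM. It also matters for the order: with the longest transcript Stim1 averaged 4.96 ± 2.09 TPM in CKD and 6.76 ± 2.08 TPM in controls and lay above Cacna1g, at 3.11 ± 1.19 TPM in CKD and 4.10 ± 2.28 TPM in controls, in 16 of 16 libraries. With that length Cacna1c exceeded Cacnb2 in only 11 of 16 libraries. Their CKD means were then 31.7 ± 8.68 TPM for Cacna1c and 32.0 ± 5.99 TPM for Cacnb2.

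**Figure D1:**
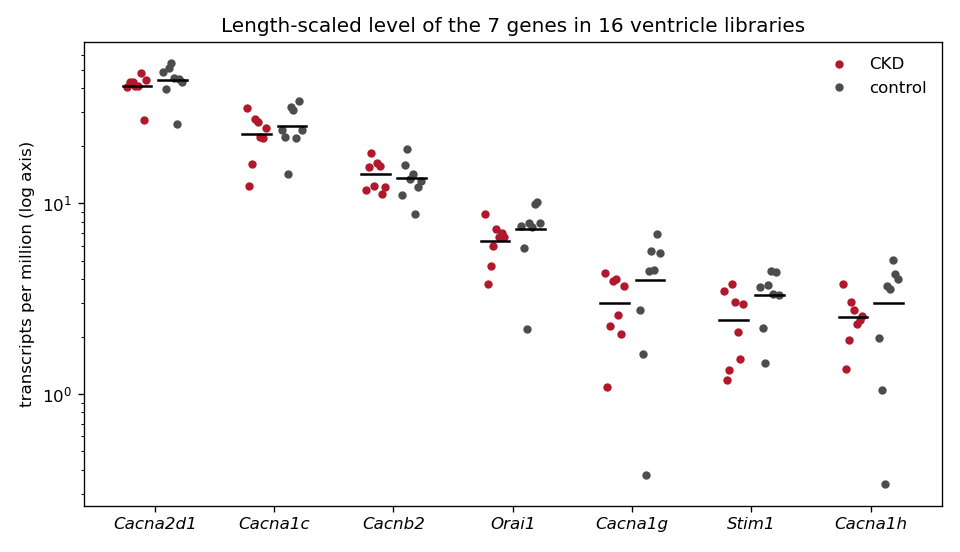
Length-scaled level (TPM, log axis) of each of the 7 genes, with 1 point for each of 8 CKD (red, left) and 8 control (grey, right) libraries and a bar at the mean. The L-type subunits lie highest, with control means of 44.2, 25.5 and 13.5 TPM, and the lowest single points are Cacna1g and Cacna1h in 1 female control library.

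Of the 7 genes, 0 differed between CKD and control ventricles at an adjusted p under 0.05 (edgeR's quasi-likelihood test with sex as a covariate, Benjamini-Hochberg over 16400 genes), against 0.0854% of all genes tested. None of the 7 had an unadjusted p under 0.05 either, where 15.4% of all genes did. DESeq2 and limma-voom also called 0 of the 7. The sample titles carry a code number of unstated meaning that is 6 in 5 CKD and 5 control libraries; within those 10 the log2 fold changes were -0.14 for Cacna1c, 0.16 for Cacnb2, -0.07 for Cacna2d1, -0.01 for Cacna1g, 0.29 for Cacna1h, -0.46 for Stim1 and 0.08 for Orai1, again with none called. Without the 4 libraries numbered 3 to 6 they ran from -0.45 for Cacna1g to 0.22 for Cacnb2, with none called. The values are given below by role, in CPM, which compares libraries and not genes.

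Cacna1c, the pore through which the L-type current flows, had 326, 285, 287 and 302.5 CPM in male CKD ventricles, against 248, 319.5, 236.5 and 366 CPM in male controls. In females it had 137, 195, 238 and 279 CPM with CKD, against 242, 154, 308 and 271 CPM in controls. The male CKD values all lay inside the range of male controls, and the lowest value of all, 137 CPM, came from a female CKD library. The arms averaged 256 ± 62.7 CPM in CKD and 268 ± 64.3 CPM in controls, a log2 fold change of -0.08 (SE 0.15; 95% interval -0.40 to 0.24; adjusted p = 0.814). That interval bounds the difference at this number of mice and does not show that the levels were equal.

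Cacnb2, the beta subunit, was the only one of the 7 with a positive estimate. It had 75.3, 79.4, 109 and 95.7 CPM in male CKD ventricles, against 70.0, 83.8, 59.4 and 81.0 CPM in male controls, and 2 of the 4 male CKD libraries lay above every male control. In females it had 107, 139, 105 and 85.6 CPM with CKD, against 108, 129.7, 88.3 and 91.3 CPM in controls, and these overlapped throughout. The arms averaged 99.5 ± 20.6 CPM in CKD and 89.0 ± 21.9 CPM in controls, with a log2 fold change of 0.18 (SE 0.12; 95% interval -0.08 to 0.43; adjusted p = 0.497).

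Cacna2d1, which encodes the alpha2delta subunit, had the smallest ratio of highest to lowest library of the 7 over all 16 libraries. It had 244, 250.2, 259 and 221 CPM in male CKD ventricles, against 289.7, 317, 164 and 279 CPM in male controls. Females with CKD had 278.5, 309, 299.7 and 291 CPM, against 255, 323, 266 and 285 CPM in female controls. That ratio was 1.97, and 1.94 without the libraries numbered 3 to 6, where those of Cacna1c (1.55), Orai1 (1.73) and Cacnb2 (1.84) were smaller. CKD and control values overlapped in both sexes. Means were 269 ± 30.5 CPM in CKD and 272 ± 49.6 CPM in controls (log2 fold change -0.02, SE 0.11, 95% interval -0.25 to 0.21, adjusted p = 0.927).

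**Figure D2:**
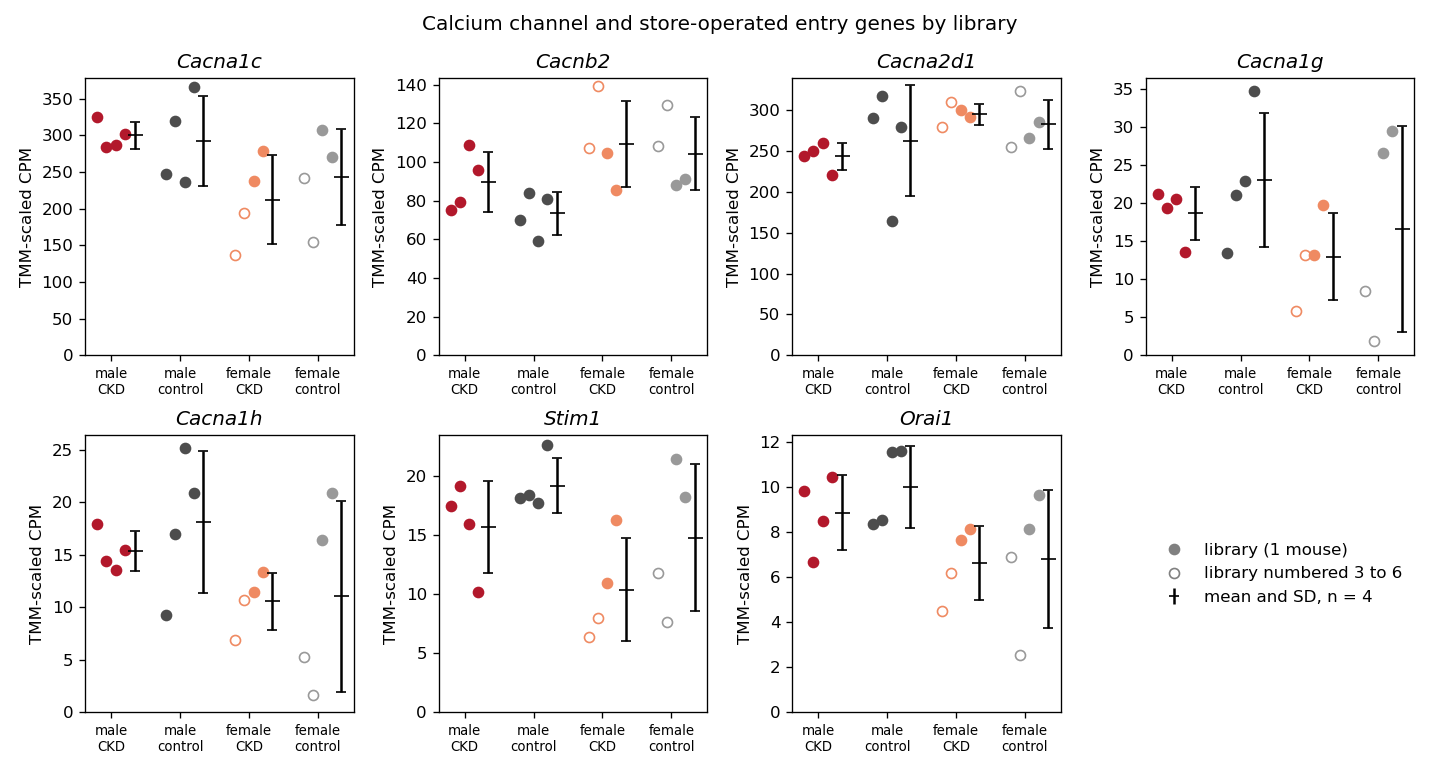
TMM-scaled CPM of each gene in male CKD (red), male control (dark grey), female CKD (orange) and female control (light grey) libraries, with the mean and SD of each group of 4; open circles are the 4 female libraries numbered 3 to 6. CKD and control points overlap in both sexes for every gene, and the open circles lie low for Cacna1g (1.93 to 13.2 CPM) and Cacna1h (1.66 to 10.7 CPM) and high for Cacnb2 (107 to 139 CPM).

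Cacna1g, the Cav3.1 pore, had 21.2, 19.3, 20.6 and 13.7 CPM in male CKD ventricles, against 13.4, 21.1, 22.9 and 34.8 CPM in male controls. In females it had 5.78, 13.2, 13.2 and 19.8 CPM with CKD, against 8.41, 1.93, 26.6 and 29.6 CPM in controls. None of the 8 CKD libraries lay above the control median, yet 2 of the female control values were among the lowest 3 of all 16. The mean was 15.8 ± 5.33 CPM in CKD and 19.8 ± 11.1 CPM in controls, and the log2 fold change was -0.33 with a wide interval, -1.11 to 0.46 (SE 0.37; adjusted p = 0.688).

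Cacna1h, the Cav3.2 pore, had 17.9, 14.4, 13.6 and 15.4 CPM in male CKD ventricles, against 9.27, 17.0, 25.2 and 20.8 CPM in male controls. In females it had 6.88, 10.7, 11.5 and 13.3 CPM with CKD, against 5.27, 1.66, 16.4 and 20.9 CPM in controls. As for Cacna1g, the CKD values lay within the spread of the controls, whose SD was larger: 12.98 ± 3.34 CPM in CKD and 14.6 ± 8.30 CPM in controls. The log2 fold change was -0.15 (SE 0.34; 95% interval -0.86 to 0.56; adjusted p = 0.850). Its sign turned to 0.15 with limma-voom, to 0.29 in the 10 libraries of title code number 6, and to 0.04 without female_control 4.

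Over all 16 libraries the T-type pores varied more between mice of a group than nearly all genes of their level, and much of that spread came with the libraries numbered 3 to 6. The highest library was 18.1 times the lowest for Cacna1g and 15.1 times for Cacna1h, where it was 2.67 times for Cacna1c and 2.34 times for Cacnb2. The within-group SD on the log2 scale was 1.01 for Cacna1g and 0.89 for Cacna1h, at the percentiles 99.4 and 98.6 among the 500 genes nearest in level. Without the libraries numbered 3 to 6 the ratio of highest to lowest was 2.64 for Cacna1g and 2.72 for Cacna1h, and the SD was 0.41 for each, at the percentiles 88.4 and 85.4. Both minima were in female_control 2, with 22 Cacna1g counts (exact Poisson interval 13.8 to 33.3) and 19 Cacna1h counts (11.4 to 29.7). These intervals cover counting error only. The highest libraries held 369 Cacna1g and 303 Cacna1h counts, and the source of the spread was not tested. Markers of nodal and conduction tissue, where T-type pores are abundant, summed to 31.6 to 53.8 CPM in CKD and 35.2 to 62.4 CPM in control libraries; 6 of the 7 were tested, all 6 with negative estimates (5 of 6 without the libraries numbered 3 to 6) and none called, and Isl1 was at 0 in 9 of 16 libraries. Hcn4, the pacemaker channel among them, averaged 8.09 ± 3.50 CPM in CKD and 9.58 ± 5.72 CPM in controls, and ranged from 0.701 to 16.7 CPM. Their part in the T-type values was not tested, and in bulk ventricle fewer cells of a type and less RNA per cell cannot be told apart.

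Stim1, the calcium sensor of the reticulum, had the lowest p of the 7. It had 17.5, 19.2, 15.99 and 10.2 CPM in male CKD ventricles, against 18.1, 18.4, 17.7 and 22.6 CPM in male controls, and 3 of the 4 male CKD libraries lay below every male control. In females it had 6.37, 7.97, 10.97 and 16.3 CPM with CKD, against 11.8, 7.62, 21.5 and 18.2 CPM in controls, where 1 CKD library lay below every control. Means were 13.1 ± 4.77 CPM in CKD and 17.0 ± 4.95 CPM in controls, a log2 fold change of -0.39 (SE 0.21; 95% interval -0.84 to 0.05; adjusted p = 0.384), rank 3429 by p among the genes tested. The estimate was negative under every setting tried and in every run with 1 library left out, where it lay between -0.52 and -0.30, and it was called in none of them. Library male_CKD 4, with the low fibroblast markers, held the lowest male value, and without it the male estimate was -0.11 in place of -0.29. Fibroblast markers, of cells that also use store-operated entry, had negative estimates in 10 of 10 (median log2 fold change -0.43, none called) and summed to 253 to 1340 CPM in CKD and 988 to 1360 CPM in control libraries; endothelial markers had negative estimates in 9 of 9 (median -0.30, none called), at 380 to 1020 CPM in CKD and 822 to 1100 CPM in control libraries. Without male_CKD 4 the negative estimates were 8 of 10 for fibroblast markers (median -0.31) and 8 of 9 for endothelial markers (median -0.28), the CKD sums began at 764 and 657 CPM, and none was called. Without the libraries numbered 3 to 6 they were 9 of 10 (median -0.38) and 8 of 9 (median -0.20), again with none called. Over all 16 libraries other lists were also mostly negative. Smooth muscle and pericyte markers had 8 of 8 negative estimates (median -0.21) and macrophage markers 6 of 8 (median -0.09). Of the tested lymphocyte markers 4 of 4 were negative (median -0.67), and of the tested nerve and Schwann cell markers 3 of 3 (median -0.24). Ventricular myocyte markers had 3 of 10 negative (median 0.12), and none of these was called. The part of these cell types in the Stim1 values was not tested.

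Orai1, the store-operated pore, had 9.82, 6.69, 8.49 and 10.4 CPM in male CKD ventricles, against 8.34, 8.51, 11.6 and 11.6 CPM in male controls. Female CKD ventricles had 4.50, 6.16, 7.63 and 8.14 CPM, against 6.88, 2.54, 8.11 and 9.66 CPM in female controls. The arms overlapped in both sexes, with means of 7.73 ± 1.94 CPM in CKD and 8.40 ± 2.89 CPM in controls (log2 fold change -0.11, SE 0.21, 95% interval -0.54 to 0.33, adjusted p = 0.818). The estimate was 0.08 in the libraries of title code number 6 and 0.05 with trends in base composition and transcript length removed, so its direction was not fixed.

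Within each sex the 7 genes gave no call either. In males, 0 of the 7 and 0% of all genes were called by edgeR; 6.88% of all genes and 0 of the 7 had an unadjusted p under 0.05, and DESeq2 called 6 higher and 6 lower genes, none of them among the 7. The largest male estimates were 0.29 for Cacnb2 (95% interval -0.08 to 0.66, adjusted p = 0.825) and -0.30 for Cacna1g (-1.44 to 0.84, adjusted p = 0.976). The Cacnb2 estimate was 0.18 without male_CKD 3 and 0.37 without male_CKD 1, and that of Cacna1g was -0.51 without male_control 1 and -0.0326 without male_control 4. In females, 0 of the 7 were called against 0.0549% of all genes, and 8.34% of all genes but 0 of the 7 had an unadjusted p under 0.05. The largest female estimates were -0.51 for Stim1 (95% interval -1.16 to 0.15, adjusted p = 0.688) and -0.36 for Cacna1g (-1.51 to 0.80, adjusted p = 0.862). The female estimate of Stim1 was -0.80 without female_CKD 4 and -0.30 without female_control 3. The female estimate of Cacna1g was 0.03 without female_control 4 and -0.73 without female_control 2. Cacna1c was at 0.04 in males and -0.20 in females, and Cacna2d1 at -0.11 in males and 0.06 in females.

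The difference between those effects, female minus male, was also tested. It was called for 0 of the 7 and for 0% of all genes by edgeR, with 1.68% of all genes and 0 of the 7 at an unadjusted p under 0.05; DESeq2 also called 0 genes. Estimates ran from -0.24 for Cacna1c (95% interval -0.89 to 0.42) and -0.22 for Stim1 (-1.14 to 0.70) to 0.17 for Cacna1h (-1.30 to 1.65) and 0.17 for Cacna2d1 (-0.30 to 0.64), with an adjusted p of 1 for each. The widest intervals were those of the T-type pores, so a difference between the sexes was least detectable there.

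**Figure D3:**
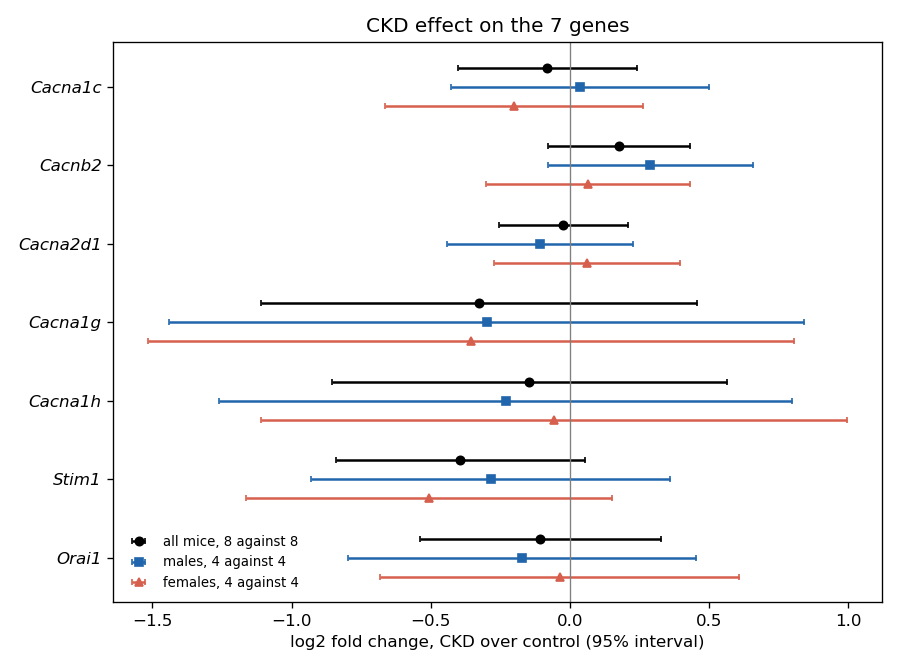
Log2 fold change of CKD over control with its 95% interval, for all mice (black circles, 8 against 8), males (blue squares) and females (red triangles, 4 against 4 each). Every interval crosses 0; Stim1 in all mice comes closest, at -0.84 to 0.05, and those of Cacna1g and Cacna1h are the widest.

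Estimates for females over males were larger in size than those for CKD over control for each of the 7 genes. They were negative for the pores Cacna1c, Cacna1g and Cacna1h and for Stim1 and Orai1, and positive for Cacnb2 and Cacna2d1. In edgeR 0 of the 7 passed the threshold, against 0.171% of all genes. Cacnb2 ran from 85.6 to 139 CPM with a median of 105.9 in females and from 59.4 to 109 CPM with a median of 80.2 in males; 2 of the 8 females lay above every male. Its log2 fold change was 0.39 (SE 0.12; 95% interval 0.14 to 0.65; adjusted p = 0.0807), and DESeq2 called it at 0.40 (adjusted p = 0.0367). In this comparison DESeq2 called 357 genes higher and 1089 lower of 16400, far more than edgeR. Cacna1c stood at -0.38 (adjusted p = 0.137), Orai1 at -0.49 (adjusted p = 0.155), Stim1 at -0.49 (adjusted p = 0.167) and Cacna1h at -0.62 (adjusted p = 0.254). Cacnb2, Cacna1c, Orai1 and Stim1 were 4 of 7 at an unadjusted p under 0.05, where 25.2% of all genes had one.

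These sex differences moved with the 4 female libraries numbered 3 to 6. In those, Cacna1h had 1.66 to 10.7 CPM, against 11.5 to 20.9 CPM in the other 4 females and 9.27 to 25.2 CPM in the 8 males. Orai1 had 2.54 to 6.88 CPM there, against 7.63 to 9.66 CPM in the other females, and Cacnb2 had 107 to 139 CPM, against 85.6 to 105 CPM. The 2 sets of females were chosen after the values were seen. The split follows the first principal component, and how many of all genes separate by it was not counted. The ranges are therefore not read as particular to these genes. Without the 4 libraries the female over male log2 fold changes were -0.11 for Cacna1c, 0.19 for Cacnb2, 0.18 for Cacna2d1, 0.07 for Cacna1g, -0.12 for Cacna1h, -0.07 for Stim1 and -0.16 for Orai1, each nearer to 0 than with them and with the sign of Cacna1g reversed.

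Over all 16 libraries the levels of the 7 genes went with base composition. A GC index was taken for each library as the Spearman correlation, across genes, of its deviation in log2 CPM with the G+C content of the longest transcript. It ran from -0.49 to 0.55. The 5 genes with more than 50% G+C in that transcript were higher in libraries of high index. Their Spearman correlations over the 16 libraries were 0.83 for Orai1, 0.75 for Cacna1g, 0.74 for Cacna1h, 0.62 for Stim1 and 0.59 for Cacna1c. The 2 genes of low G+C content ran the other way, at -0.73 for Cacnb2 and -0.62 for Cacna2d1. Over all genes tested the median was -0.04, with 5% of genes below -0.76 and 5% above 0.81, so Orai1 lay beyond the upper bound and the other 6 inside; each gene also enters the index of its library. In the 12 libraries not numbered 3 to 6 the correlations were 0.72 for Orai1, 0.57 for Cacna1h, 0.46 for Cacna1g, 0.22 for Stim1, 0.17 for Cacna1c, -0.57 for Cacnb2 and -0.72 for Cacna2d1, with 5% of all genes below -0.76 and 5% above 0.73, so all 7 lay inside. With trends in G+C content and length removed, the SD over libraries was 0.21 in place of 0.53 log2 units for Orai1, 0.52 in place of 0.93 for Cacna1h and 0.66 in place of 1.01 for Cacna1g, but 0.37 in place of 0.39 for Cacna1c.

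**Figure D4:**
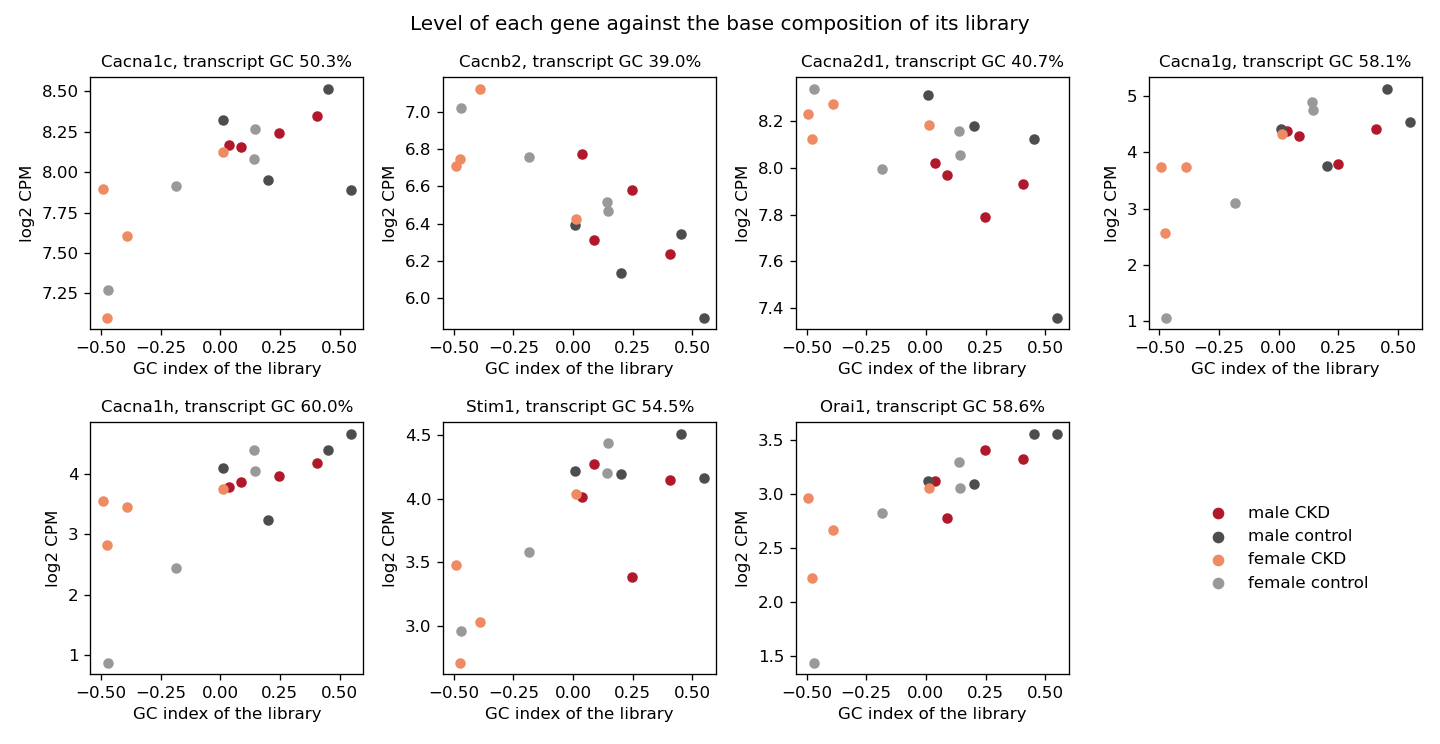
Log2 CPM of each gene (y) against the GC index of its library (x, no unit), 1 point per library, coloured by group. Each panel title gives the G+C content of the longest transcript. Points climb with the index for Orai1 (Spearman correlation 0.83) and Cacna1g (0.75) and descend for Cacnb2 (-0.73); the low-index end is made up of female libraries.

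Over all 16 libraries the 2 T-type pores had the highest correlation of the 21 pairs, but no pair passed the threshold without the libraries numbered 3 to 6. Pearson's r of log2 CPM was 0.95 and Spearman's rho 0.92 over 16 libraries (100000-resample permutation p = 1e-05, the smallest that these resamples can give; adjusted p = 0.00021 over 21 pairs). It was 0.95 on deviations from the 4 group means, 0.87 without the 2 libraries farthest from the Cacna1g median, 0.82 with base composition and length trends removed, and 0.75 in the 12 libraries not numbered 3 to 6 (permutation adjusted p = 0.0545), where Cacna1g with Stim1 was at 0.76 (permutation adjusted p = 0.0545). Of the 21 pairs, 16 had an adjusted permutation p under 0.05, 11 with positive and 5 with negative r, 6 had one once those trends were removed, and 0 had one in the 12 libraries not numbered 3 to 6, where 3 had an unadjusted permutation p under 0.05. All 5 negative pairs held Cacnb2, whose transcript has the lowest G+C content of the group, so every possible partner has more. Its pair with Cacna2d1 was positive, at r = 0.57 (permutation adjusted p = 0.0274). The strongest negative pair was Cacnb2 with Stim1, at r = -0.75 and rho = -0.70 (permutation adjusted p = 0.00165). That pair was at -0.76 without the 2 farthest libraries and -0.80 with trends removed. In the 12 libraries not numbered 3 to 6 these 5 pairs were at -0.47 with Stim1, -0.35 with Orai1, -0.34 with Cacna1h, -0.15 with Cacna1g and 0.14 with Cacna1c, and Cacna1c with Orai1 was at 0.25, against 0.81 over all 16. Stim1 and Orai1, sensor and pore of the same pathway, had r = 0.71 (permutation adjusted p = 0.00434) and rho = 0.52 (adjusted p = 0.0612). For that pair r was 0.45 without the 2 farthest libraries, 0.21 with trends removed and 0.06 without the libraries numbered 3 to 6. The correlation thus fell under each of these settings, and what it rested on was not tested.

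The protein-coding genes whose levels followed each gene most closely over the 16 libraries, among 11396 candidates, included Mtss1l and Camta2 for Cacna1g (r of 0.99 for each), Scaf1, Zfpm1 and Zfp219 for Cacna1h (highest r 0.98), Dag1, Gtpbp1 and BC034090 for Cacna1c (highest r 0.97), and Lrrk1, Sh3pxd2a and Itpkb for Stim1 (highest r 0.98). They included Dclre1a, Atp6ap1 and Csnk2a1 for Cacnb2 (highest r 0.93), Umad1, Ipo7 and Pde4d for Cacna2d1 (highest r 0.95), and Trim28, Atp13a2 and Mgat4b for Orai1 (highest r 0.96). These are the top of many correlations that share library and base composition, and they carry no test.

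Around the 7 genes, no other channel subunit passed the test in CKD against control ventricles. The other L-type pores Cacna1d and Cacna1s had estimates of -0.20 and -0.26, and Cacna1f had at most 1 count in any library. Of 4 beta subunits 1 had a positive estimate, Cacnb2, and Cacnb1 and Cacnb3 stood at -0.26 (adjusted p = 0.552) and -0.35 (adjusted p = 0.538). All 3 tested alpha2delta subunits had negative estimates, with Cacna2d3 at -0.53 (adjusted p = 0.422), and the 2 tested gamma subunits were split, with Cacng7 at -0.67 and Cacng6 at 0.34. Cacna1i, the third T-type pore, had at most 3 counts in a library, so the T-type signal of these ventricles came from Cacna1g and Cacna1h. Medians of the lists ran from -0.24 for the T-type pores to -0.14 for the beta subunits, beside 0.0017 over all genes, of which 49.8% were negative.

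All 5 sensors and pores of store-operated entry had negative estimates in CKD, with a median log2 fold change of -0.20 and none called. Orai3, a pore of the same family, averaged 17.8 ± 3.61 CPM in CKD and 22.8 ± 3.74 CPM in controls, with 3 of 8 CKD libraries below every control (log2 fold change -0.36, SE 0.11, adjusted p = 0.139). Stim2 stood at -0.15 and Orai2 at -0.20. Of 11 tested genes listed as regulators of this pathway 3 had positive and 8 negative estimates and none was called. Golim4 is counted among the 11 without an established part in store-operated entry. It averaged 30.8 ± 7.32 CPM in CKD and 37.5 ± 5.05 CPM in controls, with 2 of 8 CKD libraries below every control (log2 fold change -0.28, SE 0.15, adjusted p = 0.373). Trpc1, a cation channel of the plasma membrane, averaged 14.5 ± 2.35 CPM in CKD and 12.4 ± 1.95 CPM in controls, with 3 of 8 CKD libraries above every control (log2 fold change 0.22, SE 0.12, adjusted p = 0.397).

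Among 22 tested regulators of the L-type channel, 10 had positive and 12 negative estimates and edgeR called none. The 2 kinase anchors that bind the channel complex had estimates of opposite sign, and DESeq2 called both. Over all 16400 genes DESeq2 called 224 higher and 174 lower. Akap5, which tethers protein kinase A and calcineurin near the pore, averaged 3.23 ± 1.70 CPM in CKD and 6.99 ± 2.84 CPM in controls, and 5 of 8 CKD libraries lay below every control (log2 fold change -1.09, SE 0.30, adjusted p = 0.123; DESeq2 adjusted p = 0.0242). Akap7, the small anchor of the same kinase, averaged 47.2 ± 6.22 CPM in CKD and 38.7 ± 2.39 CPM in controls, and 6 of 8 CKD libraries lay above every control (log2 fold change 0.28, SE 0.08, adjusted p = 0.123; DESeq2 adjusted p = 0.0313). Bin1, which shapes the T-tubule membrane where L-type channels gather, averaged 5.55 ± 1.05 CPM in CKD and 7.28 ± 1.40 CPM in controls (log2 fold change -0.39, SE 0.14, adjusted p = 0.192). Akap5 also passed in edgeR without female_CKD 4 (log2 fold change -1.35, adjusted p = 0.0434); these calls therefore depended on the tool or on 1 library.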

How the data were processed

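The members and gene lists were chosen with earlier results of these data known. What the authors deposited was 1 table of raw counts, unnormalized whole numbers of reads per gene. STAR 2.6.1d, Subread 1.6.3 with featureCounts, DESeq2 1.30.1, FastQC and MultiQC were used on the mm10 genome, per the submitters' processing notes. Annotation release, strand setting and handling of multi-mapping reads: not given in the sources used here. GENCODE release M21 held 33367 of the 33399 gene identifiers. Groups came from the treatment and sex labels, and replicate numbers only name a library. The labels do not say whether libraries of a group came from separate litters or days, so p-values measure the spread between these libraries.

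Counts were tested with edgeR 4.0.16 in R 4.3.3 after filterByExpr (minimum count 10, minimum total 15), which kept 16400 genes (99.8% or more of the counts in each library), and TMM scaling. CKD against control had sex as a covariate, females against males had the arm, and effects within a sex and their difference were contrasts of a model of the 4 groups over all 16 libraries. Tests were two-sided, with a Benjamini-Hochberg threshold of 0.05. CPM is TMM-scaled, log2 CPM has a prior count of 2, and TPM was computed from counts and joined exon lengths. The common biological coefficient of variation was 0.225, so the spread between mice, more than counting error, set the precision for all but the lowest counts. No pair of libraries of a group agreed within sampling noise.

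Named were the 7 members, then the list genes past the threshold or else up to 4 per list with the lowest p, and for likeness the 3 protein-coding genes of highest Pearson r (mean log2 CPM of at least 1). Of the genes meeting this rule, 3 are in the counts but not reported here. The alternatives tried were DESeq2 1.42.0, limma-voom 3.58.1 with quality weights, RLE and upper-quartile scaling, no mitochondrially encoded genes, no filter, a minimum of 1 CPM in 8 libraries, a factor for the title code number, only code 6, no sex term, base composition and length trends removed by lowess (span 0.3), only the 8 libraries of a sex, and libraries left out. Leaving out the libraries numbered 3 to 6, leaving out male_CKD 4 for the marker lists, and the title code settings for the sex comparison, were chosen after seeing the data. The additive fit of CKD against control was tested on simulated counts with known changes. Those counts held no sex effect, no trend with base composition and no outlying library, so the simulation does not cover these features of the data. The sex comparison and the contrasts of the 4 groups were not tested in this way.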

Additional observations from a re-analysis of the deposited data

Results flagged for a closer look

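Stim1 in library male_control 4 stood apart from the other 3 male controls, at 22.6 CPM against 17.7 to 18.4 CPM. It was the only one of 28 combinations of gene and group in which a single library lay that far from the rest of its group, and chance gives about 1 in 20, or 1.4 of 28. Without that library the CKD over control estimate of Stim1 in all mice stayed within -0.52 to -0.30 on the log2 scale and uncalled.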

How the results depend on the processing

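Of the 7 genes none was called for CKD in any setting or in any of 16 runs with 1 library left out; in the sex comparison DESeq2 called 1, Cacnb2 (0.40), and no other setting any. Signs that turned in CKD against control were Cacna1h (limma-voom 0.15, title code factor 0.0327, code 6 only 0.29, trends removed 0.18), Orai1 (0.0151 with the factor, 0.0805 with code 6, 0.0506 with trends removed) and Cacna2d1 (0.017 with the factor, 0.024 without male_CKD 4 and female_control 2). With trends removed the female estimates became 0.024 for Cacna1g, 0.41 for Cacna1h and 0.17 for Orai1, and the sex difference in the CKD effect 0.14 for Cacna1g; the female over male value of Cacna1g was 0.0673 without the libraries numbered 3 to 6. Low-count relatives turned too: Cacnb4 (limma-voom 0.21, code 6 0.077, without male_CKD 4 and female_control 2 0.17, without numbers 3 to 6 0.0444) and Cacna1a (code 6 0.10, trends removed 0.0885). The cause was not tested.

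Counts over all genes moved far more. CKD against control gave 7 higher and 7 lower genes, but 224 and 174 with DESeq2, 121 and 78 with limma-voom, 24 and 29 without a filter, 150 and 84 with the title code factor, 16 and 11 with trends removed, and 4 and 4 without the libraries numbered 3 to 6; code 6 alone gave 3 higher, no sex term 4 lower, and leaving out male_CKD 4 and female_control 2 gave 13 higher. DESeq2 gave 6 higher and 6 lower in males, 16 and 16 in females, and 357 and 1089 between the sexes; the 8 female libraries alone gave 0 and 0 for CKD in females. Females against males gave 8 lower genes with the factor, 10 lower with code 6, 4 higher and 8 lower with trends removed, and 3 and 5 without numbers 3 to 6.

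Leaving out 1 library gave 4 to 17 higher and 2 to 26 lower genes for CKD, 4 to 135 higher and 4 to 1326 lower between the sexes (both highest without female_control 3), 0 to 1 lower in males, and 0 to 6 higher and 0 to 7 lower in females. CKD log2 fold changes then ran from -0.15 to 0.0024 for Cacna1c, -0.10 to 0.0042 for Cacna2d1, -0.31 to 0.0368 for Cacna1h and -0.13 to 0.0928 for Cacnb4. In males Cacna1c ran from -0.0616 to 0.16. In females the ranges were -0.10 to 0.19 for Cacnb2, -0.73 to 0.0281 for Cacna1g, -0.42 to 0.40 for Cacna1h and -0.31 to 0.14 for Orai1, and for the sex difference -0.43 to 0.35 for Cacna1g, -0.19 to 0.65 for Cacna1h, -0.52 to 0.0029 for Stim1 and -0.14 to 0.33 for Orai1.

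With the longest transcript as length, control means were 35.3 TPM for Cacna1c, 30.5 for Cacnb2, 63.4 for Cacna2d1 and 6.76 for Stim1. Correlations that lost their call with trends removed were Cacnb2 with Cacna1c (-0.39), Cacna2d1 (0.43), Cacna1g (-0.38), Cacna1h (-0.12) and Orai1 (-0.0077), Cacna1c with Cacna1h (0.42) and Orai1 (0.51), Cacna1g with Orai1 (0.73), and Stim1 with Cacna1h (0.26) and Orai1 (0.21); Cacna2d1 with Orai1 turned to 0.0287. Without the libraries numbered 3 to 6, 0 of 21 pairs were called. The 15 that lost the call with their sign kept were Cacna1c with Cacna1g (0.53), Cacna1h (0.32), Stim1 (0.38) and Orai1 (0.25), Cacnb2 with Cacna2d1 (0.51), Cacna1g (-0.15), Cacna1h (-0.34), Stim1 (-0.47) and Orai1 (-0.35), Cacna1g with Cacna1h (0.75), Stim1 (0.76) and Orai1 (0.40), Cacna1h with Stim1 (0.36) and Orai1 (0.69), and Stim1 with Orai1 (0.0597); Cacna1c with Cacnb2 turned to 0.14, Cacna1c with Cacna2d1 to 0.24 and Cacna2d1 with Stim1 to 0.0981. That setting also has 4 libraries fewer. No paired analysis was possible because replicate numbers follow the order of the records and tie no mice together. Depth limits the lowest values, such as 22 Cacna1g and 19 Cacna1h counts in 1 library, and alternative starts, splicing and protein are outside these counts.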

Other observations

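Several channel genes were at or near 0 in these ventricles. Cacng8, a gamma subunit, had no count in 15 of 16 libraries, Cacng4 in 13, Cacna1f in 12, Cacna1b in 10 and Cacna1i in 9, and Cacna1e had 1 to 10 counts per library. Rem2, an inhibitor of L-type channels in the family of Rrad and Gem, had no count in 12 libraries and at most 1 in the rest. Cacna1s, the pore of skeletal muscle, was detected throughout, at 12.3 ± 4.25 CPM in CKD and 14.7 ± 3.64 CPM in controls (SD, n = 8 each; log2 fold change -0.26, edgeR adjusted p = 0.540).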
